A study of Homo sapiens with 8 samples.

Results

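Prefoldin (PFD) is a hexameric chaperone of the eukaryotic cytosol, and the 6 genes of its canonical subunits were followed here among the 60664 genes of the count tables. They were chosen by name, as the canonical subunits, with earlier results of these data known. VBP1 (also called PFD3) and PFDN5 encode the alpha-type subunits, and PFDN1, PFDN2, PFDN4 and PFDN6 encode the beta-type subunits. The data come from selective ribosome profiling, in which mRNA fragments protected by ribosomes (RPFs) are sequenced from all ribosomes (input) and from those recovered through a tagged chaperone (pulldown). The cells were U-2 OS, a human osteosarcoma line, edited by CRISPR knock-in so that a HaloTag, a protein tag that binds its synthetic ligand covalently, sits on one chaperone. In the TRiC line the tag lies in an internal loop of CCT4, a subunit of the chaperonin TRiC, and in the PFD line at the C terminus of PFD4, the product of PFDN4. Each line was grown from a single clone, so that clone, edit and any preparation batch cannot be told apart between the lines. All cells received cycloheximide at 100 µg/ml for 1 min and the crosslinker DSP at 2 mM for 30 min before RNase I digestion. Input and pulldown of both lines make 4 groups with 2 biological replicates each, 8 libraries in all.

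Prefoldin binds unfolded chains between the coiled-coil tips of its subunits and hands actin and tubulin to TRiC, whose closing chamber folds them. It also binds nascent chains while they are still on the ribosome. PFDN2 and PFDN6 are shared with the prefoldin-like complex, which contains URI1 and UXT and works with the R2TP co-chaperone. VBP1 is known as a partner of the von Hippel-Lindau protein, and PFDN5 as a modulator of MYC. The question put to the counts was how strongly each subunit gene was translated in both lines, and whether ribosomes making the subunits were recovered with either chaperone more or less than in the input.

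All 6 genes are short, with 366 nt of coding sequence in PFDN1, 387 in PFDN6, 402 in PFDN4, 462 in PFDN2 and in PFDN5, and 591 in VBP1, the stop codon not counted. Positions are those of GENCODE release 44 on hg38. PFDN1 (ENSG00000113068) lies on chromosome 5 from 140245035 to 140303113, PFDN2 (ENSG00000143256) on chromosome 1 from 161100556 to 161118055, and both are on the minus strand with 4 coding exons. On the plus strand lie VBP1 (ENSG00000155959, chromosome X, 155197007 to 155239841, 6 coding exons) and PFDN4 (ENSG00000101132, chromosome 20, 54208087 to 54228052, 4 coding exons). PFDN5 (ENSG00000123349, chromosome 12, 53295291 to 53299452, 6 coding exons) and PFDN6 (ENSG00000204220, chromosome 6, 33289302 to 33298401, 4 coding exons) are also on the plus strand. Some stretches of coding sequence bear on how the counts can be read, and are given 5′ to 3′ on the coding strand from the hg38 genome. The first is the end of the PFDN4 coding sequence with its stop codon in capitals (chr20:54219088-54219150, plus strand), where the HaloTag was joined in the PFD line. The second is the start of the PFDN5 coding sequence (chr12:53295568-53295627, plus strand), with the start codon in capitals, which an exon of another gene covers on the same strand. The third holds the coding bases of PFDN1 that lie under an exon of CYSTM1 on the opposite strand (chr5:140281497-140281533, minus strand), with nothing capitalised.
PFDN4: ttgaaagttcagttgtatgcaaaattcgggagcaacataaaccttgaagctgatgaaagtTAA
PFDN5: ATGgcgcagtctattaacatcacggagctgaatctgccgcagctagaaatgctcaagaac
PFDN1: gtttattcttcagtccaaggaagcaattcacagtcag
HaloTag codons are not part of hg38, so the PFDN4 counts of the PFD line stand for the gene's own bases.

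The libraries held 9523128 to 32637658 counts in total, and the 6 subunit genes together took 230 to 392 CPM (counts scaled to library size, here to raw totals). The smallest library, PFD pulldown replicate 1, stood apart from its partner at 245 against 392 CPM. The edgeR common dispersion, the squared coefficient of variation between replicates, was 0.0153 over the TRiC-line libraries and 0.331 over those of the PFD line. Of the bone and mesenchymal markers, COL1A1, SPARC and VIM were abundant in every library (lowest 2850, 2180 and 1450 CPM), RUNX2 lay between 30.2 and 64.5 CPM, and ALPL between 2.44 and 43.1 CPM. The osteoblast markers SP7 and BGLAP reached at most 0.314 and 0.714 CPM, and COL1A2 had at most 66 counts in a library. The summed bone list lay between 6730 and 10000 CPM, against 0.316 to 18.3 CPM for 7 markers of other cell types, most of it from EPCAM in 7 libraries, with 189 to 277 counts, while EPCAM had 1 count in PFD pulldown replicate 1.

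In the TRiC line 5 of the subunit genes had RPF levels close to each other. PFDN5 had far fewer counts than they did in both lines, but its level cannot be read from these counts, as set out below. Levels are given as CPM on TMM-normalized library sizes, divided by the kilobases of coding sequence so that genes of different length can be set side by side (CPM per kb, mean ± SD, n = 2). In the TRiC input the order was VBP1 (153 ± 13.5), PFDN6 (146 ± 0.273), PFDN2 (122 ± 7.70), PFDN1 (108 ± 14.0), PFDN4 (104 ± 6.07) and PFDN5 (3.69 ± 0.189). The replicates of VBP1 and PFDN6 overlapped, as did those of PFDN2 and PFDN1 and those of PFDN1 and PFDN4, while PFDN6 and PFDN2 were apart. In the PFD input the order was PFDN2 (276 ± 29.6), VBP1 (234 ± 36.2), PFDN6 (119 ± 24.3), PFDN1 (93.0 ± 22.5), PFDN4 (26.3 ± 4.54) and PFDN5 (0 and 7.59 in the replicates). Here PFDN2 and VBP1 overlapped, as did PFDN6 and PFDN1, and PFDN4 lay below both without overlap. PFDN4 thus stood near PFDN1 in the TRiC line and well below it in the PFD line.

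VBP1 led in the TRiC pulldown and PFDN2 in the PFD pulldown, as in the input of each line. In the TRiC pulldown VBP1 (118 ± 5.17) was followed by PFDN6 (101 ± 11.8), PFDN2 (95.7 ± 1.46), PFDN4 (89.9 ± 2.02), PFDN1 (89.2 ± 6.52) and PFDN5 (4.15 ± 1.95), in CPM per kb. PFDN6 overlapped with PFDN2, and PFDN4 with PFDN1. In the PFD pulldown PFDN2 (319 ± 27.1) led without overlap, before VBP1 (188 ± 126), PFDN6 (82.7 ± 42.4), PFDN1 (59.3 ± 23.8), PFDN4 (29.2 ± 1.71) and PFDN5 (3.75 ± 4.01). VBP1 overlapped with PFDN6 there, and PFDN6 with PFDN1. Without division by length, neighbours changed places in 3 groups, PFDN4 with PFDN1 in the TRiC input, PFDN2 with PFDN6 in the TRiC pulldown and VBP1 with PFDN2 in the PFD input.

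**Figure D1:**
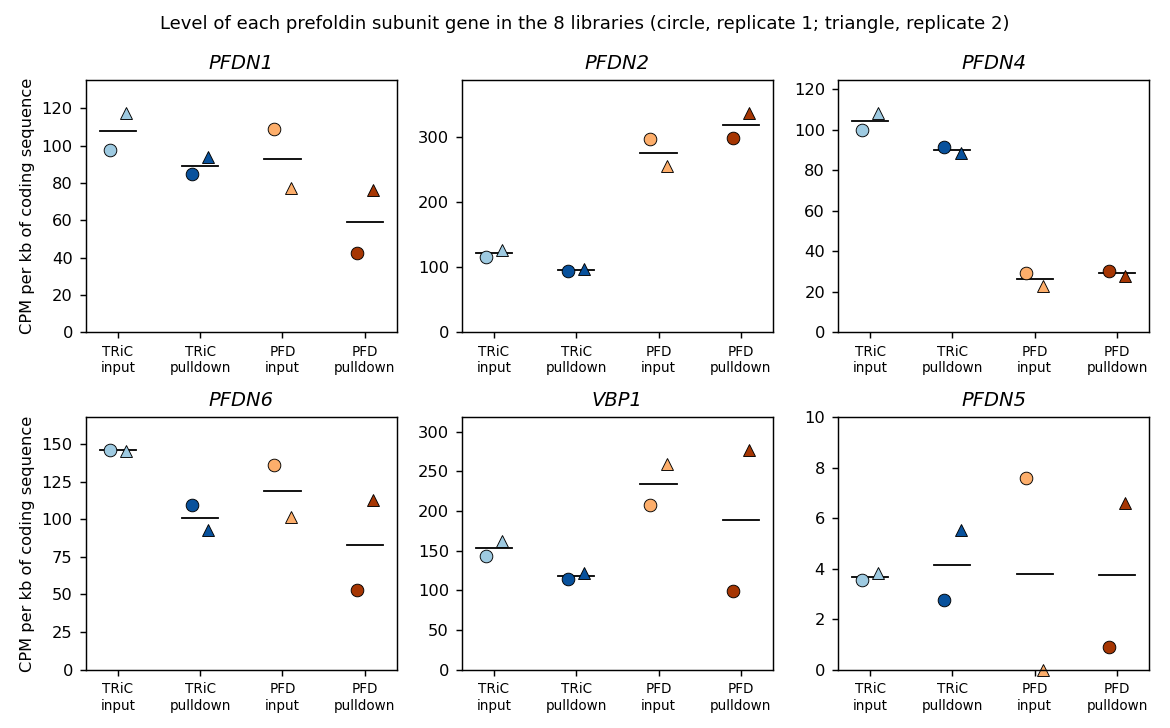
Level of each subunit gene in CPM per kb of coding sequence (vertical axis, linear, a separate range for each gene) in the 4 groups, with circles for replicate 1, triangles for replicate 2 and a line at the group mean. PFDN4 lay between 88.5 and 108 in the 4 TRiC-line libraries and between 23.1 and 30.4 in the 4 PFD-line libraries, while PFDN2 was higher in the PFD line.

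PFDN4, the gene that carries the tag in the PFD line, had 3.93-fold fewer RPFs in the PFD input than in the TRiC input. PFDN2 went the other way, 2.28-fold higher in the PFD input, and VBP1 was 1.52-fold higher. In bulk libraries such as these, fewer cells translating a gene and fewer RPFs per cell cannot be told apart, and RPF counts do not separate mRNA level from ribosomes per mRNA. The edgeR quasi-likelihood test called 2 of the 6 subunits higher and 1 lower, where 17.7% of the 16341 genes tested were higher and 22.6% lower between these inputs. The lines thus differed at many genes, with a median log2 fold change of −0.11 over all genes tested and of −0.06 over the 6 subunits.

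PFDN4 stood at 40.1 and 43.6 CPM in the TRiC inputs (1124 and 1333 counts) and at 11.9 and 9.27 CPM in the PFD inputs (223 and 96 counts). Both PFD inputs lay below both TRiC inputs. Its log2 fold change, PFD input over TRiC input, was −1.97 (SE 0.19, adjusted p = 0.00115 from edgeR), at percentile 13 of all genes tested. Under each alternative setting run, and with each library left out, this value lay between −2.18 and −1.85 and stayed called.

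Among the other beta-type subunits, PFDN2 was measured at 53.6 and 58.7 CPM in the TRiC inputs and at 137 and 118 CPM in the PFD inputs. The groups did not overlap, and the log2 fold change was 1.19 (SE 0.11, adjusted p = 0.00115 from edgeR), at percentile 91.2 of all genes tested. PFDN1 had 35.8 and 43.1 CPM in the TRiC inputs against 39.9 and 28.2 CPM in the PFD inputs, with overlap and a log2 fold change of −0.21 (SE 0.21, adjusted p = 0.481 from edgeR). PFDN6, at 56.5 and 56.3 CPM in the TRiC inputs, was at 52.7 and 39.4 CPM in the PFD inputs. These did not overlap, yet the log2 fold change of −0.29 (SE 0.16, adjusted p = 0.219 from edgeR) did not pass the threshold. Without PFD input replicate 1, PFDN1 (−0.50) and PFDN6 (−0.53) were called lower, with adjusted p-values of 0.00411 and 0.00036. That fit has 1 PFD input, assumed to vary like the TRiC inputs, and it called 10743 genes in all, against 6583 with every library.

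The alpha-type subunit VBP1 was at 84.8 and 96.1 CPM in the TRiC inputs and at 123 and 153 CPM in the PFD inputs. Both PFD inputs were above both TRiC inputs, and the log2 fold change was 0.61 (SE 0.13, adjusted p = 0.0183 from edgeR). With all 8 libraries in one fit, where a single spread is shared by both lines, the VBP1 call was lost at the same value (adjusted p = 0.293).

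**Figure D2:**
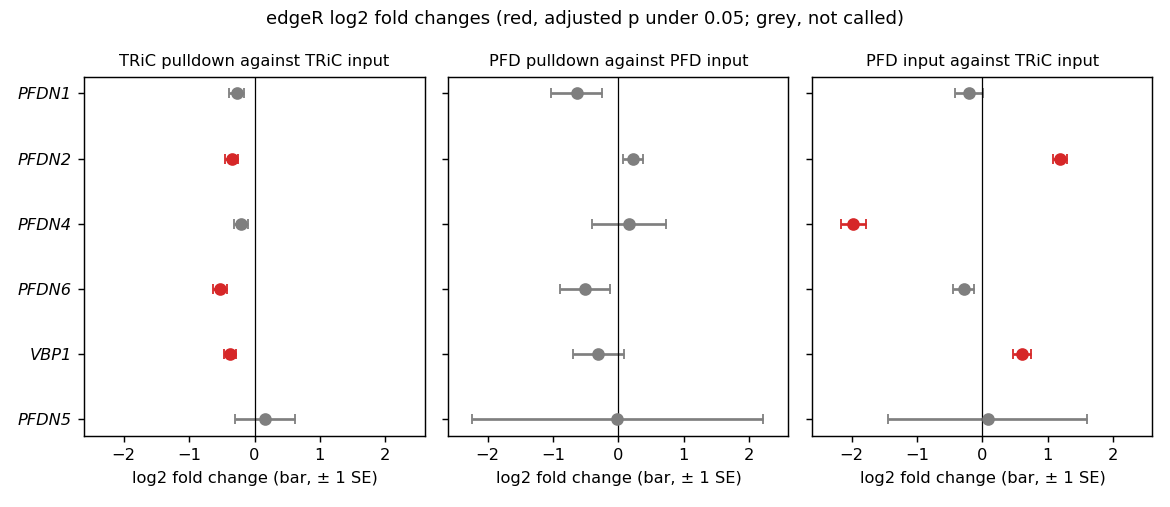
Log2 fold changes (horizontal axis) of the 6 subunit genes in 3 comparisons from edgeR, with bars of 1 SE, red where the adjusted p was under 0.05. PFDN2, PFDN6 and VBP1 were lower in the TRiC pulldown, none was called in the PFD pulldown, and PFDN4 lay at −1.97 between the inputs.

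The subunits' make-up also shows PFDN4 lower in the PFD line, on a scale that needs no library normalization. A share falls too when other subunits rise, as PFDN2 and VBP1 did between the inputs. Of the counts of the 5 subunit genes other than PFDN5, PFDN4 took 14.8% and 14.6% in the TRiC inputs, and 3.25% and 2.66% in the PFD inputs. The exact 95% Clopper-Pearson intervals, which cover counting error only, ran from 13.9 to 15.6% over the TRiC inputs and from 2.16 to 3.70% over the PFD inputs. The pulldowns were alike, at 16.6% and 16.0% for TRiC and at 4.97% and 2.79% for PFD. The PFDN4 share was thus lower in all 4 PFD-line libraries than in any TRiC-line library. PFDN2 took between 19.7 and 20.1% in the 4 TRiC-line libraries and between 33.9 and 56.4% in the 4 PFD-line libraries, the highest in PFD pulldown replicate 1. VBP1 took 30.6 to 32.4% in the TRiC line, and in the PFD line its lowest share, 24.0%, was in that same library.

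**Figure D3:**
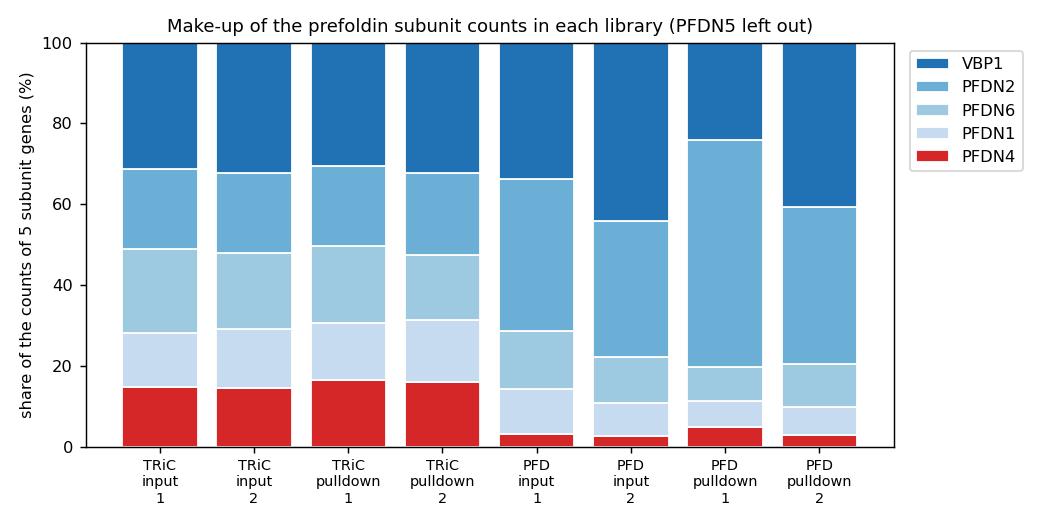
Share of each of 5 subunit genes in their summed counts (vertical axis, percent) in each of the 8 libraries, PFDN5 left out. The red PFDN4 segment holds 14.6 to 16.6% in the TRiC-line libraries and 2.66 to 4.97% in the PFD-line libraries.

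The other tagged gene, CCT4, was also the lower in its own line. It had 326 and 340 CPM in the TRiC inputs and 882 and 871 CPM in the PFD inputs, a log2 fold change, PFD over TRiC, of 1.40 (SE 0.06, adjusted p = 0.000121 from edgeR). The other 7 TRiC subunit genes lay between 0.23 and 0.63 in the same comparison, with a median of 0.56. All 8 were called higher in the PFD input, beside 17.7% of all genes tested. Between these inputs 35.1% of all genes tested had a log2 fold change beyond 1 in either direction. CCT4 made up 7.20 to 7.85% of the counts of the 8 TRiC subunit genes in the TRiC line and 12.6 to 13.4% in the PFD line. The 4 other prefoldin genes with usable counts lay between −0.29 and 1.19, with a median of 0.20. PFDN4 was therefore below, and CCT4 above, the range of the other subunit genes of its own complex. With 1 clone per line, the part of the edit in these differences was not tested.

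**Figure D4:**
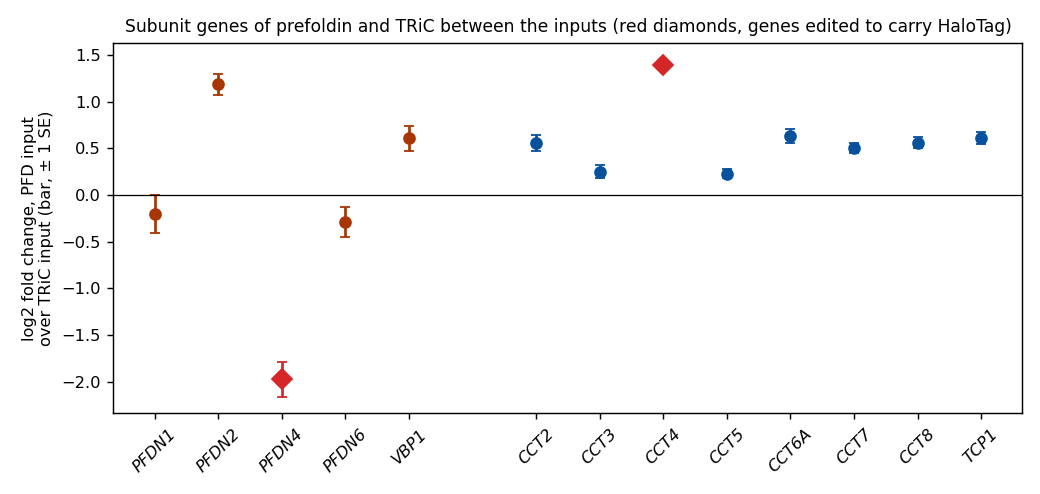
Log2 fold change, PFD input over TRiC input (vertical axis, bars of 1 SE), of 5 prefoldin and 8 TRiC subunit genes, with red diamonds for the tagged genes. PFDN4 at −1.97 and CCT4 at 1.40 lie outside the range of the other subunits of their complexes, −0.29 to 1.19 and 0.23 to 0.63.

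In the TRiC pulldown, ribosomes making prefoldin subunits were less represented than in the input for PFDN6, VBP1 and PFDN2. The decreases were small, 1.44-fold for PFDN6, 1.29-fold for VBP1 and 1.27-fold for PFDN2. A log2 fold change below 0 means here a smaller share of RPFs in the pulldown than in the input, since TMM scales the bulk of genes to no change. Of the 6 subunits 3 were called lower and none higher, while 10.6% of the 17934 genes tested were lower and 8.64% higher. The median log2 fold change was −0.31 for the 6 genes and −0.003 for all genes tested.

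PFDN6 fell from 56.5 and 56.3 CPM in the inputs of the TRiC line to 42.4 and 35.9 CPM in its pulldowns. The log2 fold change was −0.53 (SE 0.11, adjusted p = 0.00236 from edgeR). VBP1 fell from 84.8 and 96.1 to 67.7 and 72.0 CPM, a log2 fold change of −0.37 (SE 0.09, adjusted p = 0.00937 from edgeR). For PFDN2 the inputs were at 53.6 and 58.7 CPM and the pulldowns at 43.7 and 44.7 CPM, a log2 fold change of −0.35 (SE 0.10, adjusted p = 0.0205 from edgeR). In each of these genes both pulldowns lay below both inputs. With all 8 libraries in one fit the values stayed at −0.53, −0.37 and −0.35 for PFDN6, VBP1 and PFDN2, but their errors grew and the 3 calls were lost, with 31 genes called in all against 3444. The PFDN2 call was lost also with library totals in place of TMM (−0.30) and under cyclic loess (−0.29). Without TRiC input replicate 2 the values of VBP1 and PFDN2 were both −0.29 and neither was called, and without TRiC input replicate 1 PFDN2 was not called either, at −0.40.

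The other beta-type subunits had the same order of libraries but did not pass in this fit. PFDN1 was at 35.8 and 43.1 CPM in the TRiC inputs and at 31.0 and 34.3 CPM in the pulldowns, with a log2 fold change of −0.27 (SE 0.12, adjusted p = 0.114 from edgeR). Without TRiC pulldown replicate 2 it was called at −0.34 (adjusted p = 0.0433). PFDN4, whose product is untagged in this line, was at 40.1 and 43.6 CPM in the inputs and at 36.7 and 35.6 CPM in the pulldowns, which gave a log2 fold change of −0.21 (SE 0.11, adjusted p = 0.173 from edgeR). The 5 subunit genes other than PFDN5 were below 0 under TMM, DESeq2 size factors, library totals and cyclic loess alike.

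Short coding sequences as a class were lower in the TRiC pulldown. Among 1719 tested genes with at most 591 nt of coding sequence, the length of VBP1, 30.4% were called lower and 2.79% higher, with a median log2 fold change of −0.25. Among 12873 tested genes with longer coding sequences, a class added after the data were seen, 9.31% were lower and 8.70% higher, with a median of −0.004. The part of coding length in the values of the subunits was not tested.

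In the PFD pulldown no subunit was called. Of the 14111 genes tested 0.0496% were higher and 0.191% lower, and 978 had an unadjusted p under 0.05, among which no subunit lay. The standard errors of the 5 subunits with usable counts were 0.16 to 0.57 on the log2 scale, against 0.09 to 0.12 in the TRiC comparison, so changes of the size seen with TRiC were mostly not detectable here.

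PFDN2 was the 1 subunit with both PFD pulldowns above both PFD inputs. It had 137 and 118 CPM in the inputs and 138 and 156 CPM in the pulldowns, which gave a log2 fold change of 0.22 (SE 0.16, adjusted p = 0.876 from edgeR). PFDN1 was the 1 subunit with both pulldowns below both inputs, at 39.9 and 28.2 CPM in the inputs and 15.6 and 27.9 CPM in the pulldowns, which gave a log2 fold change of −0.64 (SE 0.39, adjusted p = 0.85 from edgeR). Neither passed the test.

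PFDN4, the tagged subunit, showed a pulldown level close to its input level. The inputs were at 11.9 and 9.27 CPM and the pulldowns at 12.2 and 11.2 CPM, with overlap and a log2 fold change of 0.16 (SE 0.57, adjusted p = 0.991 from edgeR).

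VBP1 and PFDN6 were split by replicate. VBP1 was at 123 and 153 CPM in the PFD inputs, at 58.8 CPM in pulldown replicate 1 and at 164 CPM in pulldown replicate 2, a log2 fold change of −0.31 (SE 0.39, adjusted p = 0.963 from edgeR). PFDN6 was at 52.7 and 39.4 CPM in the inputs, at 20.4 CPM in pulldown replicate 1 and at 43.6 CPM in pulldown replicate 2, a log2 fold change of −0.52 (SE 0.38, adjusted p = 0.887 from edgeR). In each, replicate 1 lay below both inputs and replicate 2 within or above their range. With PFD pulldown replicate 2 left out, replicate 1 alone stood for the pulldown. VBP1 was then at −1.18, PFDN6 at −1.13 and PFDN1 at −1.08. With replicate 1 left out they were at 0.22, −0.11 and −0.32. PFD pulldown replicate 1 is also the library with the fewest counts, and its part in these values was not tested beyond leaving it out.

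PFDN5 had almost no counts, and its level cannot be read from these tables. In the TRiC line it had 46 and 54 input counts and 43 and 65 pulldown counts. In the PFD line the inputs held 66 and 0 counts of it and the pulldowns 4 and 84. The 0 in PFD input replicate 2 allows a level of up to 0.290 CPM. The 2 replicates of the PFD input thus lay on either side of every TRiC library. The log2 fold changes were 0.16 (SE 0.46) in the TRiC pulldown, −0.02 (SE 2.23) in the PFD pulldown and 0.08 (SE 1.52) between the inputs, and edgeR gave adjusted p-values of 0.855, 1 and 0.975 in that order.

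Every coding base of PFDN5 (100%) lies under exons of ENSG00000288663, a long non-coding RNA gene annotated on the same strand, beginning with the stretch printed above. One of its transcripts, ENST00000676940.1, holds the whole PFDN5 coding sequence of 462 nt as an unbroken run, and the 5 others hold shorter runs of it. STAR's gene counting leaves out a read that overlaps exons of more than one gene. ENSG00000288663 is itself in the count tables, with 1 count in TRiC input replicate 2 and 0 in the other libraries. Among nuclear protein-coding genes, 877 have all their coding bases under same-strand exons of another gene. Of these 495, or 56.4%, had 0 counts in all 4 inputs, and the median summed input count of the 877 was 0. At least 100 summed input counts were held by 135, or 15.4%. PFDN5 was among these 135, with 46 and 54 in the TRiC inputs and 66 and 0 in the PFD inputs. Of the 14472 genes with no coding base shared on either strand 1587, or 11.0%, had 0 counts in the inputs. At least 100 were held by 9350, or 64.6%, and the median was 814.5. The part of this overlap in the PFDN5 counts was not tested.

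**Figure D5:**
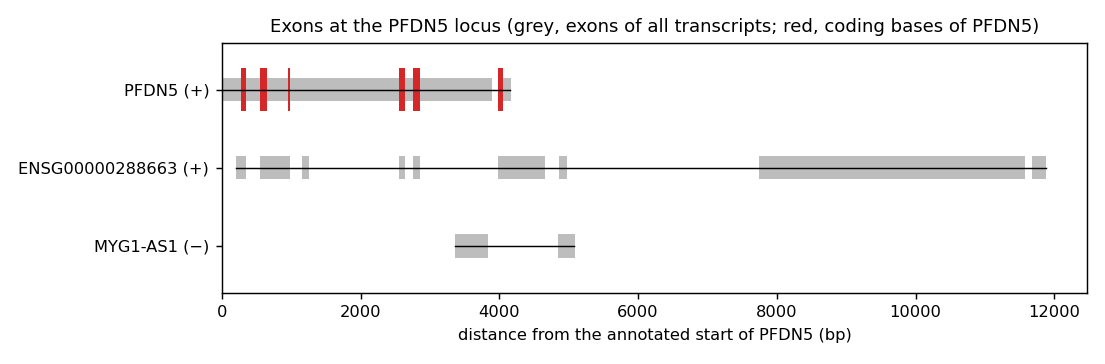
Annotated exons at the PFDN5 locus against the distance in bp from the start of PFDN5 (horizontal axis), with exons of all transcripts in grey and coding bases of PFDN5 in red. Each of the 6 red coding exons has a grey exon of ENSG00000288663 on the same strand under it.

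The other subunits are hardly touched by such overlap. The 37 bases of PFDN1 printed above, 10.1% of its coding sequence, lie under the CYSTM1 exon on the opposite strand, and PFDN2, VBP1, PFDN4 and PFDN6 share no coding base with another gene. Whether reads were counted by strand is not given in the sources used here. Reads from PFDN1 and CYSTM1 over these bases could not be told apart without it. Of the processed pseudogenes, PFDN1P1 had 30 counts over all 8 libraries, all but 1 in the TRiC line, and PFDN1P2 had 6. PFDN1 itself had 148 to 1317 in a library. Only unique alignments were counted, so a read matching PFDN1 and a copy equally well was counted for neither. How many such reads there were cannot be read from these counts.

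The difference between both enrichments, TRiC pulldown over input minus PFD pulldown over input, was tested as an interaction over all 8 libraries. No subunit was called. Of the 18855 genes tested, 0.0212% had the larger enrichment with TRiC and 0.0159% with PFD, and 2791 had an unadjusted p under 0.05, PFDN2 among them. PFDN2, lower in both TRiC pulldowns and higher in both PFD pulldowns than in the respective inputs, differed by −0.55 (SE 0.18, adjusted p = 0.243 from edgeR). DESeq2 called it at −0.56 (adjusted p = 0.0388), as 1 of 1139 genes that it called, where edgeR called 7. The differences were 0.37 for PFDN1 (SE 0.42), −0.35 for PFDN4 (SE 0.31), −0.07 for VBP1 (SE 0.54) and −0.02 for PFDN6 (SE 0.46), with adjusted p-values of 0.644 to 1 from edgeR. With standard errors of that size, differences like that of PFDN2 were not detectable for these genes.

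Partners of prefoldin were read from lists of its pathway. Of 5 genes of the prefoldin-like complex, 1 was called lower in the TRiC pulldown, where 10.6% of all genes tested were. It was POLR2E, which encodes a subunit shared by the RNA polymerases, at −0.41 (adjusted p = 0.007 from edgeR). The list's median was −0.24. Between the inputs URI1 was higher in the PFD line (0.82), UXT (−0.80) and POLR2E (−0.61) were lower, and the median was 0.06. These are 1 higher and 2 lower of 5 genes, where 17.7% and 22.6% of all genes tested were called. PFDN2 and PFDN6, which both complexes use, stood at 1.19 and −0.29 there. None of the 4 tested genes of the list was called in the PFD pulldown.

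The TRiC subunits, which receive clients from prefoldin, were lower in the TRiC pulldown for 3 of 8 genes, CCT3 (−0.31), CCT7 (−0.25) and CCT5 (−0.23), beside 10.6% of all genes tested, with a list median of −0.20. None of the 8 was called in the PFD pulldown, where the median was −0.01. Of 14 actin and tubulin genes, whose products are the best known clients of prefoldin, 8 were called lower in the TRiC pulldown, where 10.6% of all genes tested were, led by TUBA4A (−0.63), TUBG1 (−0.49) and TUBB2B (−0.44), and the median was −0.33. In the PFD pulldown TUBA1B was the 1 call, lower at −1.06, where 0.191% of all genes tested were called lower. The median of the 14 genes there was 0.16. The paper instead tested positions along each coding sequence. It reported actin and tubulins as interactors of both chaperones, and TRiC subunits as enriched among the shared substrates. Gene counts hold no positions, so enrichment over part of a coding sequence was not tested here. Since only unique alignments were counted, a read matching several actin or tubulin genes equally well was counted for none. Between the inputs 6 clients, or 42.9%, were higher in the PFD line and 3, or 21.4%, lower, beside 17.7% and 22.6% of all genes tested, the furthest being TUBB2B (−2.47), TUBB4A (−2.45) and TUBA4A (2.42), and the median was 0.22. The 3 tested TRiC cofactors PDCL, PDCL3 and TXNDC9 had no call in either pulldown or between the inputs, and PDCL2 had too few counts to test. No list gene was called in the difference between the enrichments.

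The subunit genes did not vary as a block over the 8 libraries. PFDN1 and PFDN6 varied most alike, with a Pearson correlation of 0.92 of their log2 CPM, and PFDN2 and PFDN4 ran opposite ways at −0.94. These correlations describe 8 libraries that fall into 2 lines and are not independent points. VBP1 correlated at 0.56 with PFDN2 and at −0.56 with PFDN4. Among 8007 protein-coding genes with at least 100 counts in every library, those most like the mean profile of all 6 subunits were CWF19L1 (0.97), CLPX (0.96), B4GALT4 (0.95), TMPO (0.95) and LTA4H (0.94). That profile follows PFDN5, and with PFDN5 left out, a choice made after its counts were seen, the 5 genes were others, RPA1 (0.972), NUMBL (0.970), MDH1 (0.965), PPP1CB (0.961) and PPCS (0.959). No gene was among the 5 most alike on both profiles.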

How the data were processed

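Selective ribosome profiling libraries of 8 samples were used, 2 biological replicates in each of 4 groups named by the sample labels. The deposited values are raw counts per gene in a table for each line, which the authors made by trimming and demultiplexing, removal of PCR duplicates with UMI-tools, removal of non-coding RNA with Bowtie2 2.4.2, and alignment to hg38 with STAR 2.7.10a, unique alignments only, with gene counting (versions per the submitters' processing notes). The annotation release and the strand setting are not given in the sources used here. Of 60664 gene identifiers 60463 matched GENCODE release 44, which gave names, positions and coding lengths.

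From the deposited counts, groups were compared in R 4.3.3 with edgeR 4.0.16 (TMM, filterByExpr, glmQLFit and glmQLFTest, two-sided, Benjamini-Hochberg over all genes tested, called at an adjusted p under 0.05). Pulldown and input were fitted on the 4 libraries of a line, inputs on the 4 inputs, and the difference between the enrichments on all 8. Alternatives were DESeq2 1.42.0, its size factors in edgeR, library totals, cyclic loess with limma 3.58.1, other filters on low counts, one fit of all libraries, a replicate block and each library left out in turn. The code was tested on simulated counts, with a 2-fold change given to 200 genes in each comparison. Of these edgeR recovered 181 in the TRiC pulldown, 45 in the PFD pulldown, 125 between the inputs and 6 in the difference. Shares carry exact Clopper-Pearson intervals at 95%, and a count of 0 is given as up to 3 counts. Duplicates were removed by molecular identifiers, and intervals still cover counting error only. Totals were 9523128 to 32637658 counts a library, and PFDN4 and PFDN5 had the fewest counts of the subunits in each PFD-line library. Nothing in the labels ties a replicate number to a shared preparation across groups, and p-values measure the spread between these samples. The genes with their own values are the 6 subunits, the called members of the pathway lists (up to 3 a list and comparison) and the 5 genes most like the subunits. CCT4 is given as the other tagged gene. The members and lists were chosen with earlier results of these data known.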

Additional observations from a re-analysis of the deposited data

Results flagged for a closer look

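PFDN2 was the subunit whose libraries moved opposite ways in both lines. Its share of RPFs was lower in both TRiC pulldowns and higher in both PFD pulldowns than in the respective inputs, and the difference between the log2 fold changes was −0.551. In the PFD line the lower pulldown, at 138 CPM, was hardly above the higher input, at 137 CPM. The log2 fold change there, 0.219, was not called (adjusted p = 0.876 from edgeR). The interaction test of edgeR gave an unadjusted p of 0.0148 and an adjusted p of 0.243, and that of DESeq2 an adjusted p of 0.0388. Over all genes, edgeR called 7 in this test and DESeq2 1139. With each library left out in turn the difference lay between −0.678 and −0.442.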

How the results depend on the processing

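The number of subunits called in the TRiC pulldown, 3 as reported, was 0 with all 8 libraries in one fit and lay between 1 (without TRiC input replicate 2) and 4 with a library left out. In the PFD pulldown it was 0 as reported and 0 to 3 (without PFD pulldown replicate 2) with a library left out, between the inputs 3 as reported and 3 to 6 (without PFD input replicate 1), and for the difference between the enrichments 0 as reported, 1 with DESeq2 and 0 to 1 with a library left out, VBP1 without PFD pulldown replicate 2. With all 8 libraries in one fit 2 subunits were called between the inputs, PFDN2 and PFDN4. Values that changed sign were those of PFDN5, those of VBP1 and PFDN6 in the difference, and that of VBP1 in the PFD pulldown. PFDN5 was at −0.123 (TRiC pulldown), 1.975 (PFD pulldown), −0.159 (inputs) and −1.677 (difference) under cyclic loess. With a library left out PFDN5 ranged from −0.405 to 0.573, from −1.985 to 7.776, from −8.298 to 1.009 and from −8.22 to 2.275 in the same order. The lowest value of −8.298 rests on the PFD input with 0 counts, and so does the call of PFDN5 in that fit. In the difference, VBP1 was at 0.006 with library totals and 0.157 under cyclic loess, and PFDN6 at 0.061, 0.083, 0.009 with at least 10 counts in every library and 0.032 with nuclear protein-coding genes only. Over libraries left out VBP1 ranged from −0.619 to 0.873 and PFDN6 from −0.437 to 0.672, and VBP1 in the PFD pulldown from −1.181 to 0.216. The cause was not tested.

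With the replicate number as a block, 4 subunits were called in the TRiC pulldown, PFDN1 being added (−0.268, adjusted p = 0.0447 from edgeR), and 0 in the PFD pulldown, 3 between the inputs and 0 in the difference. PFDN5 was then at 1.438 in the PFD pulldown, −1.404 between the inputs and −0.905 in the difference, where VBP1 was at 0.104 and PFDN6 at 0.065. Deviations of same-numbered libraries from their group means correlated at 0.254 for TRiC, −0.097 for PFD and −0.075 between the inputs over 8011 genes, so the numbers were not taken to pair the libraries. Genes called overall were 3444 in the TRiC pulldown as reported and 31 with all 8 libraries in one fit, 34 in the PFD pulldown and 21 (nuclear protein-coding genes only) to 2434 (without PFD pulldown replicate 2), 6583 between the inputs and 3626 to 11084 with a library left out, and 7 in the difference and 0 (replicate block) to 3931 (without PFD pulldown replicate 2), DESeq2 giving 438 in the PFD pulldown and 1139 in the difference. Between the inputs the median of all genes was −0.111 as reported and 0.034 under cyclic loess, and the calls of PFDN2, VBP1 and PFDN4 kept their direction under every scaling.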
